A study of Mus musculus with 8 samples.

Results

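The genes examined were the 34 protein-coding mouse genes of the tumour necrosis factor (TNF) ligand and receptor superfamilies, out of 21951 protein-coding genes in the GENCODE annotation of the mm10 genome. They were chosen by name. The 14 ligand genes were *Tnf*, *Lta*, *Ltb* and those named *Tnfsf* followed by a number, and the 20 receptor genes were those named *Tnfrsf* followed by a number. A peak was counted at a gene when its centre lay in the gene body or within 20 kb of it. A peak was placed at the start of a gene when its centre lay within 1000 bp of an annotated transcript start.

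Ligands of this superfamily are mostly membrane proteins that act as trimers, on the cell surface or after release. They bind trimers of their receptors, which recruit TRAF adaptors or, in the death receptors, adaptors with death domains, and so lead to NF-kB activation or to cell death. In monocytes and macrophages *Tnf* is the best known inflammatory product of the family, and several other ligands made by myeloid cells act on lymphocytes.

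The chromatin immunoprecipitation (ChIP)-Seq data were from clonal derivatives of X18.1.1, a radiation-induced murine acute myeloid leukaemia (AML) cell line. X18.1.1 has lost one *Pu.1* allele, and the other allele is mutated, so both lines carried endogenous mutant PU.1. The line termed EV (PU.1-) carried an empty MSCV-puro retrovirus, and the line termed PuER (PU.1+) carried a retrovirus encoding wild-type PU.1 fused to an oestrogen receptor domain that 4-hydroxytamoxifen (OHT) activates. Both were kept in 100 nM OHT for 2 h, so OHT was common to both lines. Each line was a separate single clone, obtained by limiting dilution and picked for low activity without OHT, so an effect of the fusion protein cannot be told apart from a difference between the clones. The antibody against PU.1 did not separate mutant from wild-type protein. Peaks of PU.1 and of CEBPA, a CCAAT/enhancer-binding protein and a partner of PU.1 in myeloid cells, were each available from 1 EV library and 1 PuER library. Without replicates the differences between the lines have no replicate check, and no test was made. All peaks were 400 bp wide, and the peak files hold coordinates without heights or read counts, so the depth is unknown, and a site without a call may still have been bound. Peaks of one antibody that overlapped by at least 1 bp between the lines were termed shared, and the others are given as called only in PuER or only in EV.

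Sequence under the peaks of *Lta*, *Tnfrsf14*, *Tnfsf8*, *Tnfrsf8* and the *Tnfsf13* and *Tnfsf12* pair is given first, because these were the 5 PU.1 peaks of the PuER list at superfamily genes with a GAGGAAGT site, the form of the ETS site preferred by PU.1, in their central 80 bp. All sequences are from mm10, + strand, 5′ to 3′. Capitals mark GGAAGT, the ETS core that lies within GAGGAAGT, or GAGGAAGT itself, on either strand.
Lta, PuER only (chr17:35222374-35222453): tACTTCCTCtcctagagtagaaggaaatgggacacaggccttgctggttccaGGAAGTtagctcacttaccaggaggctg
Tnfrsf14, PuER only (chr4:154927062-154927141): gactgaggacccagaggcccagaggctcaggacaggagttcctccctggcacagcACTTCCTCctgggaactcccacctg
Tnfsf8, both lines (chr4:63847429-63847508): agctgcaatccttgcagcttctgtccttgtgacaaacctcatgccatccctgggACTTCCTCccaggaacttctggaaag
Tnfrsf8, both lines (chr4:145276672-145276751): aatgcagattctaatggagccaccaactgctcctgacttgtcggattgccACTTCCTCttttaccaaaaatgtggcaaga
Tnfsf13 and Tnfsf12, both lines (chr11:69686067-69686146): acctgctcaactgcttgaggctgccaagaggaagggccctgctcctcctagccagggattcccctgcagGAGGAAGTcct
In the *Lta* peak the 2 capital runs were on opposite strands, and the peak lay upstream of the gene. The *Tnfrsf14* peak was in the gene near its start, and those of *Tnfsf8* and *Tnfrsf8* were in introns. The *Tnfsf13* and *Tnfsf12* peak was shared through an EV peak at chr11:69685645-69686044. The stretch shown and its site lay outside that EV peak, so they were under a PU.1 call in PuER only.

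The next sequences show GGAAGT sites, in capitals on either strand, in peaks called only in PuER at genes with 4 or more PU.1 peaks in that list. They were chosen after the values were seen.
Ltb, Tnf and Lta, PuER only (chr17:35189354-35189433): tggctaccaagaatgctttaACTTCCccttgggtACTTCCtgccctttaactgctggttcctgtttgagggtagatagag
Tnfrsf21, PuER only (chr17:43058768-43058847): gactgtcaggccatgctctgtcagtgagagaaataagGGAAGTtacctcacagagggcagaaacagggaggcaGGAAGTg
Tnfrsf1a, PuER only (chr6:125345750-125345829): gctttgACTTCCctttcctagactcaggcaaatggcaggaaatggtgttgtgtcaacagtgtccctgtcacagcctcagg
The first lay between *Lst1* and *Ltb* and had a pair of sites on the same strand, as did the *Tnfrsf21* peak, which was in an intron. The *Tnfrsf1a* peak lay upstream of that gene.

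The third set is from peaks at gene starts, with GGAAGT or the CEBP site TTGCNNAA in capitals on either strand, and was also chosen after the values were seen. Stretches that reach into an untranslated exon are cut to 30 bp around the site.
Tnfsf13b, PU.1 and CEBPA, both lines (chr8:10006629-10006658): cggaaggcagaTTGAGCAAtccatggaagg
Tnfsf13, PU.1 in PuER only and CEBPA in both lines (chr11:69685351-69685380): ggaagagcgggTTACGCAAgggagaaataa
Tnfsf13, CEBPA in PuER only (chr11:69685851-69685930): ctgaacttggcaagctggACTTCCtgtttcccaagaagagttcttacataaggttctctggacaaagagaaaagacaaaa
Tnfsf14, CEBPA in both lines (chr17:57194136-57194165): ggaaaccacaaTTGCCCAAcacgctcgggc
Tnfrsf1b, CEBPA in both lines (chr4:145246388-145246467): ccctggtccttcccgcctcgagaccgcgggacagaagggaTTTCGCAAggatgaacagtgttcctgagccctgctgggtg
Tnfrsf9, PU.1 in the empty-vector line only (chr4:150914443-150914472): ccacagagcaacgcttgccGGAAGTgagtc
At *Tnfsf13b* and at *Tnfsf13* the same CEBP site lay in the centre of a PU.1 peak and of a CEBPA peak. Some stretches also lay under peaks that their labels do not name. The GGAAGT site of the PuER-only CEBPA peak of *Tnfsf13* lay in the EV PU.1 peak at chr11:69685645-69686044 and outside the PU.1 peaks of the PuER list. The *Tnfsf14* stretch lay inside the PuER-only PU.1 peak at chr17:57193905-57194304.

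Across the 34 genes, the PuER list had 41 PU.1 peaks and the EV list had 13. The CEBPA lists had 52 peaks in PuER and 71 in EV. More PU.1 peaks and fewer CEBPA peaks were therefore called in the line with wild-type PU.1. These peaks were 0.261% (95% confidence interval 0.188–0.354%) of the 15683 PU.1 peaks in PuER and 0.246% (0.131–0.42%) of the 5288 in EV, and 0.253% (0.189–0.331%) of the 20583 CEBPA peaks in PuER and 0.272% (0.212–0.343%) of the 26119 in EV. The 4 shares lay within each other's intervals, so the superfamily genes held a similar share of every list. All intervals are Clopper-Pearson intervals and take account of counting error alone.

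Of the PU.1 peaks, 33 were called only in PuER, 8 were shared and 5 were called only in EV. Of the CEBPA peaks, 4 were called only in PuER, 48 were shared and 23 were called only in EV. The superfamily windows covered 1.83 Mb, and they held 18.0 PuER-only PU.1 peaks per Mb (exact Poisson 95% interval 12.4–25.3), beside 6.83 in the windows of all protein-coding genes. Shared PU.1 peaks numbered 4.37 per Mb (1.88–8.6), beside 1.64, and EV-only PU.1 peaks 2.73 (0.886–6.37), beside 1.38. For CEBPA the densities were 2.18 (0.595–5.59) PuER-only, 26.2 (19.3–34.7) shared and 12.6 (7.96–18.8) EV-only peaks per Mb, beside 1.31, 10.1 and 4.41. The intervals lay above the values of all genes for PuER-only and shared PU.1 and for shared and EV-only CEBPA, and included them for the EV-only PU.1 and PuER-only CEBPA peaks, which were few. The densities were not matched for gene length. All protein-coding genes reach 4434882 bp and the superfamily genes 82616 bp.

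By gene, 20 of the 34 (58.8%, 95% confidence interval 40.7–75.4%) had a PU.1 peak in the PuER list, beside 41.4% of all protein-coding genes, and 12 (35.3%, 19.7–53.5%) had one in the EV list, beside 23.7%. A PU.1 peak called only in PuER was present at 17 (50.0%, 32.4–67.6%), beside 36.7% of all genes. A shared PU.1 peak was present at 9 (26.5%, 12.9–44.4%), beside 13.4%, and an EV-only PU.1 peak at 4 (11.8%, 3.3–27.5%), beside 13.7%. Each of these intervals included the share of all genes. A CEBPA peak was present at 26 genes (76.5%, 58.8–89.3%) in the PuER list, beside 51.3% of all genes, and at 28 (82.4%, 65.5–93.2%) in the EV list, beside 56.5%. Shared CEBPA peaks were at 26 genes (76.5%, 58.8–89.3%), beside 48.3%, and EV-only peaks at 18 (52.9%, 35.1–70.2%), beside 30.1%. For these 4 the interval lay above the share of all genes. CEBPA peaks called only in PuER were at 7 genes (20.6%, 8.7–37.9%), beside 11.4%, which the interval included. Among all genes as long as the superfamily genes, 1882 to 82616 bp, the shares of genes with PuER-only, shared and EV-only peaks were 34.9%, 12.4% and 13.4% for PU.1 and 10.1%, 47.7% and 28.3% for CEBPA.

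Genes that neighbour each other share peaks, so they are not independent counts and the intervals over genes are too narrow. When windows that overlapped were merged, the 34 genes formed 27 loci, and 5 loci held 12 of the genes, namely *Ltb* with *Tnf* and *Lta*, *Tnfsf13* with *Tnfsf12*, *Tnfrsf1b* with *Tnfrsf8*, *Tnfrsf4* with *Tnfrsf18*, and *Tnfrsf26* with *Tnfrsf22* and *Tnfrsf23*. Peaks of PU.1 called only in PuER were at 13 of the 27 loci, shared peaks at 6 and EV-only peaks at 4. For CEBPA the numbers were 4, 20 and 13. Windows of all genes were not merged in this way, so the counts of loci have no background. The CEBPA peaks called only in PuER were counted at 7 genes but at 4 loci.

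**Figure D1:**
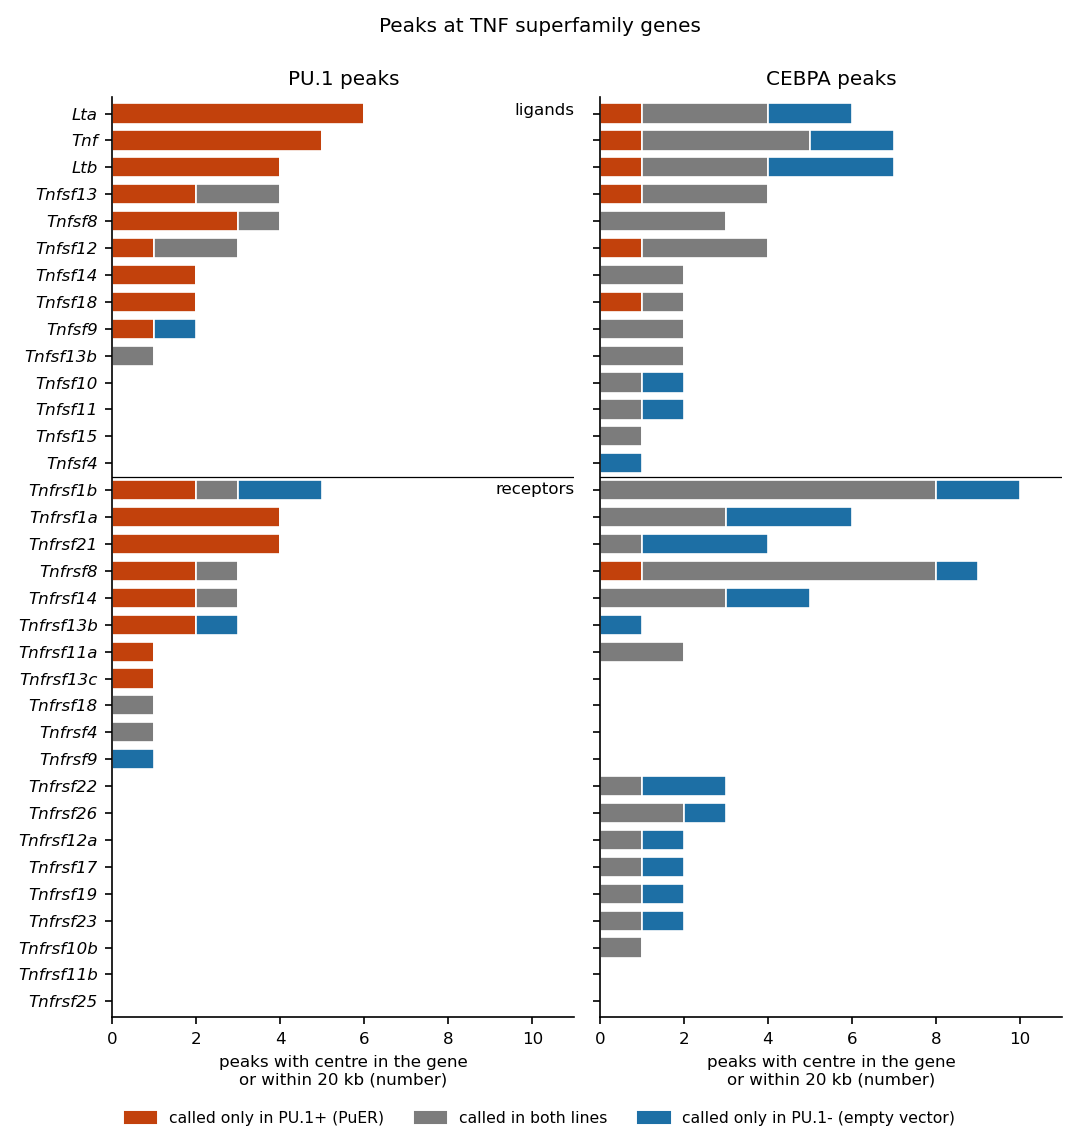
Number of PU.1 peaks (left) and CEBPA peaks (right) at each of the 34 genes, with ligands above the line and receptors below it. Bars are stacked by call: only in PuER (orange), both lines (grey) and only in EV (blue). Orange is frequent on the left and scarce on the right, where 7 genes have it.

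**Figure D2:**
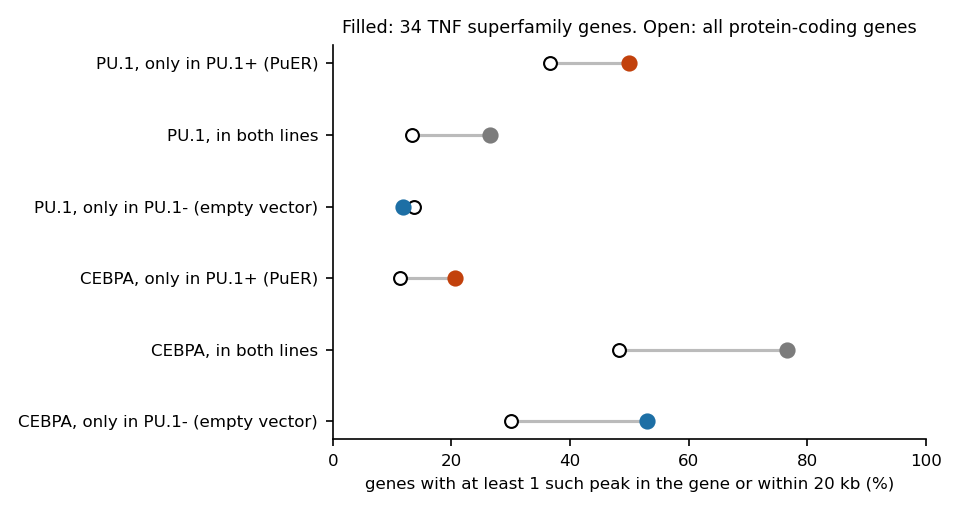
Percent of the 34 superfamily genes (filled points) and of all 21951 protein-coding genes (open points) with at least 1 peak of each class in the gene or within 20 kb. The filled point lies to the right of the open point in every class except PU.1 peaks called only in EV, 11.8% beside 13.7%.

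Both antibodies had peaks at 17 genes (50.0%, beside 39.4% of all protein-coding genes). CEBPA without PU.1 was found at 11 (32.4%, beside 19.2%) and PU.1 without CEBPA at 4 (*Tnfrsf13c*, *Tnfrsf9*, *Tnfrsf4* and *Tnfrsf18*; 11.8%, beside 6.85%). Neither was found at 2 (*Tnfrsf11b* and *Tnfrsf25*; 5.88%, 95% confidence interval 0.72–19.7%), beside 34.5% of all genes. The number of PU.1 peaks was higher in the PuER list at 15 genes (44.1%, 27.2–62.1%), beside 32.5% of all genes, and lower at 1, *Tnfrsf9* (2.94%), beside 6.2%. The number of CEBPA peaks was higher in the PuER list at 3 (*Tnfsf18*, *Tnfsf13* and *Tnfsf12*; 8.82%), beside 6.72%, and lower at 17 (50.0%, 32.4–67.6%), beside 26.7%. The direction was that of all genes, and the PU.1 list was the longer in PuER and the CEBPA list the longer in EV. PU.1 peaks called only in PuER were at 9 of 14 ligands and 8 of 20 receptors, beside 36.7% of all genes. The 9 ligands include neighbours that share peaks, namely *Ltb*, *Tnf* and *Lta*, and *Tnfsf13* and *Tnfsf12*. EV-only CEBPA peaks were at 6 ligands and 12 receptors, beside 30.1% of all genes. A difference between ligands and receptors was not tested. PuER-only CEBPA peaks were at 6 ligands, which shared 3 peaks, and at 1 receptor with 1 peak.

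Among the ligands, the locus of *Tnf*, *Lta* and *Ltb* on chromosome 17 had the most PU.1 peaks. *Tnf* encodes the inflammatory cytokine that gives the family its name, *Lta* encodes lymphotoxin alpha, which binds the TNF receptors as a secreted trimer, and *Ltb* encodes lymphotoxin beta, which holds lymphotoxin alpha at the cell surface. *Lta* (chr17:35203165-35205351) had 6 PU.1 peaks in the PuER list and 0 in the EV list. *Tnf* (chr17:35199381-35202007) had 5 and 0. *Ltb* (chr17:35194439-35196320) had 4 and 0. All PU.1 peaks of the locus were thus called in PuER only, and most were counted at several of the 3 genes.

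The 6 peaks of the locus were spread over both flanks. The peak at chr17:35200961-35201360 was the only one at the start of a superfamily gene. It was in an intron of *Tnf* with its centre 844 bp from the transcript start, and its central 80 bp had none of the 5 motifs searched. The peak at chr17:35192952-35193351 was centred 1288 bp upstream of *Ltb* and 6 bp from the centre of a shared CEBPA peak. The peak with a pair of GGAAGT sites shown above, chr17:35189194-35189593, was 5046 bp upstream of *Ltb* but nearer to *Lst1*, at 954 bp. The peak at chr17:35186116-35186515 was also nearest to *Lst1*, at 2124 bp. On the other flank, the peaks at chr17:35219661-35220060 and chr17:35222214-35222613 were 14509 and 17062 bp upstream of *Lta*, and the start of *Gm16181* was closer to both. Proximity therefore placed 2 of the 6 peaks at a superfamily gene and the others at neighbours.

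CEBPA was called at the same locus in both lines. *Tnf* had 5 CEBPA peaks in PuER and 6 in EV, *Ltb* had 4 and 6, and *Lta* had 4 and 5. The single CEBPA peak called only in PuER, chr17:35188208-35188607, was centred 32 bp from the start of *Lst1*. An EV-only CEBPA peak, chr17:35195066-35195465, was at the start of *Ltb*, 639 bp downstream in a coding exon. A shared CEBPA peak lay in *Tnf*, 1400 bp from the start, and had an AP-1 site (TGANTCA) in its centre.

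*Tnfsf13* encodes APRIL and *Tnfsf12* encodes TWEAK. APRIL is a survival factor of plasma cells and B cells, and TWEAK acts on tissue repair and inflammation through the receptor encoded by *Tnfrsf12a*. *Tnfsf13* (chr11:69682846-69685784) had 4 PU.1 peaks in PuER and 2 in EV, and 4 CEBPA peaks in PuER and 3 in EV. *Tnfsf12* (chr11:69686250-69695849), which lies just upstream on the same strand, had 3 and 2 PU.1 peaks and 4 and 3 CEBPA peaks. These genes and *Tnfsf18* were the only ones of the 34 with more CEBPA peaks in PuER than in EV.

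The start of *Tnfsf13* had a PU.1 peak and a CEBPA peak called only in PuER. A PuER-only PU.1 peak, chr11:69685146-69685545, was centred 209 bp downstream of the start in an untranslated exon, with a shared CEBPA peak 2 to 3 bp away. A PuER-only CEBPA peak, chr11:69685691-69686090, was centred 106 bp upstream of the start and had a GGAAGT site, shown above, but no CEBP site in its centre. It overlapped a shared PU.1 peak, chr11:69685907-69686306, 322 bp upstream, with the GAGGAAGT site shown above. That PU.1 peak was shared only narrowly, since it overlapped its EV counterpart by 138 of 400 bp, and its GAGGAAGT site lay outside that counterpart. The GGAAGT site of the CEBPA peak lay inside the EV counterpart and outside the PuER PU.1 peak. A further PuER-only PU.1 peak, chr11:69665928-69666327, was counted at *Tnfsf13* but was centred 26 bp from the start of *Cd68*. The shared PU.1 peak at chr11:69695845-69696244 was at the start of *Tnfsf12*, 195 bp upstream and without any of the motifs, and was closer, at 54 bp, to a start of *Tnfsfm13*, the read-through gene of the pair.

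**Figure D3:**
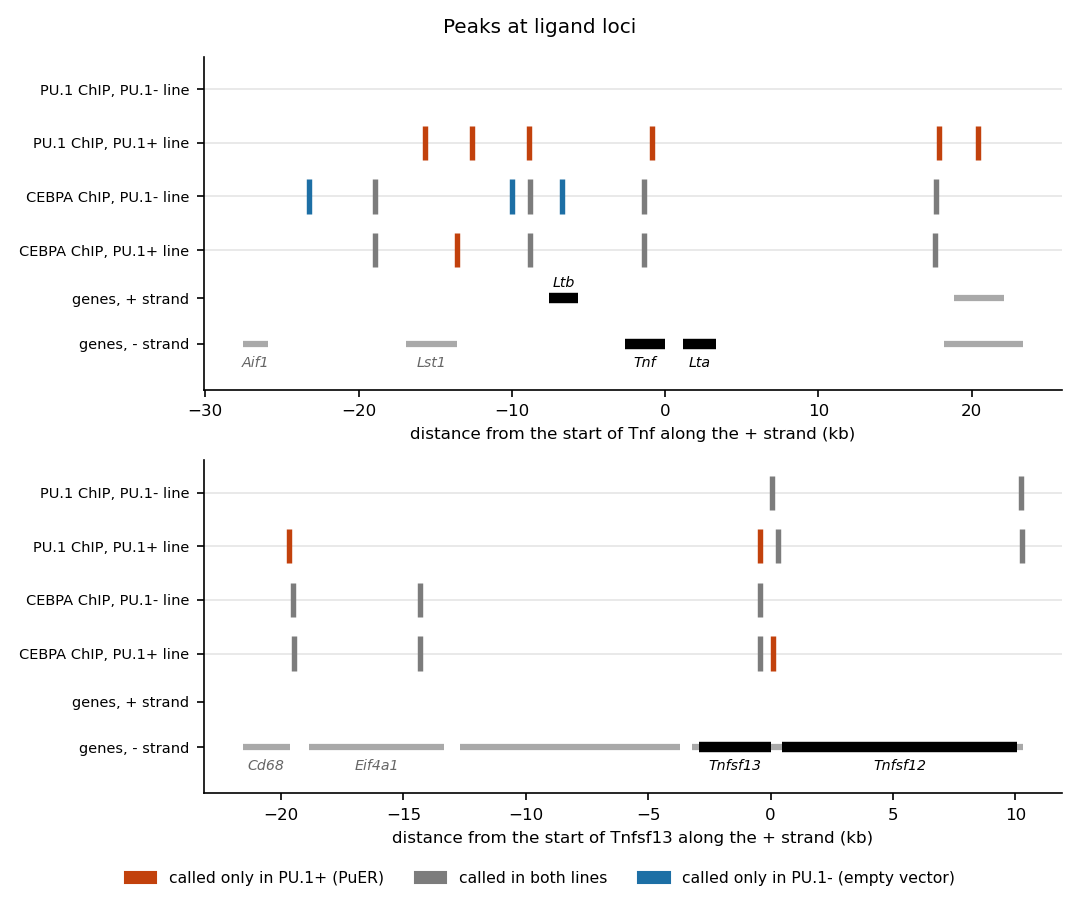
Centres of PU.1 and CEBPA peaks in each line at the *Ltb*, *Tnf* and *Lta* locus (top) and the *Tnfsf13* and *Tnfsf12* locus (bottom), as distance in kb from the 5′ end of *Tnf* or *Tnfsf13* along the + strand. Ticks are peaks coloured by call, black bars are superfamily genes and grey bars are other protein-coding genes. The row for PU.1 in EV is empty at the *Tnf* locus and holds 2 peaks at the *Tnfsf13* locus.

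*Tnfsf8* encodes the ligand of CD30. It had 4 PU.1 peaks in PuER, 1 in EV and 3 CEBPA peaks in each list. *Tnfsf8* (chr4:63831308-63861347) had all its PuER-only PU.1 peaks downstream of the gene, at chr4:63815679-63816078, chr4:63821451-63821850 and chr4:63823170-63823569. The first 2 overlapped shared CEBPA peaks, with centres 187 and 11 bp apart, and the last was without CEBPA. The shared PU.1 peak at chr4:63847269-63847668, in an intron, carried the GAGGAAGT site shown above and was centred 1 bp from a shared CEBPA peak. PU.1 in PuER was therefore called at all 3 CEBPA sites of this gene.

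*Tnfsf14* encodes LIGHT, a ligand of the receptors encoded by *Tnfrsf14* and *Ltbr*. It had 2 PU.1 peaks in PuER, 0 in EV and 2 CEBPA peaks in each list. The PuER-only PU.1 peak at chr17:57193905-57194304 was at the start, 73 bp downstream in an untranslated exon, and overlapped a shared CEBPA peak 35 bp away, whose CEBP site is shown above. *Tnfsf18*, which encodes the ligand of GITR, had 2 PU.1 peaks in PuER and 0 in EV, 1 in an intron and 1 downstream, both without CEBPA. It also had 2 CEBPA peaks in PuER and 1 in EV, of which the PuER-only peak was 12864 bp upstream and had a CEBP site in its centre.

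*Tnfsf13b* encodes BAFF, a survival factor of B cells made by myeloid cells. It had 1 PU.1 peak and 2 CEBPA peaks in each line. The PU.1 peak, chr8:10006442-10006841, was centred 8 bp from the start, and a shared CEBPA peak, chr8:10006459-10006858, was centred 4 bp from it. The calls at this start did not differ between the lines. *Tnfsf9*, which encodes the ligand of CD137, had 1 PU.1 peak in each list, but at different places. The EV-only peak, chr17:57102292-57102691, was 2834 bp upstream and the PuER-only peak 7825 bp downstream of the start, and each overlapped a shared CEBPA peak. The EV-only peak had a CEBP site and no GGAAGT in its centre.

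The other 4 ligands had CEBPA peaks alone. *Tnfsf10* (TRAIL, a death-inducing ligand) and *Tnfsf11* (RANKL, the osteoclast differentiation factor) each had 1 CEBPA peak in PuER and 2 in EV. *Tnfsf15* (TL1A, a costimulator of T cells) had 1 in each. *Tnfsf4* (the ligand of OX40) had 0 in PuER and 1 in EV, at its start (chr1:161394849-161395248), 361 bp upstream. No PU.1 peak was called within 20 kb of these genes in either line.

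Among the receptors, those for TNF itself differed from each other. *Tnfrsf1a* encodes the broadly expressed TNF receptor with a death domain, and *Tnfrsf1b* encodes the second TNF receptor, which lacks that domain and is found mainly on blood cells. *Tnfrsf1a* (chr6:125349362-125362484) had 4 PU.1 peaks in PuER and 0 in EV. *Tnfrsf1b* (chr4:145213463-145246870) had 3 PU.1 peaks in each list. At *Tnfrsf1a* all PU.1 calls were in PuER alone, while at *Tnfrsf1b* the number was equal and the places differed in part.

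The *Tnfrsf1a* peaks were at chr6:125333459-125333858, chr6:125334468-125334867 and chr6:125345590-125345989, centred 15793, 14784 and 3662 bp upstream of the start, and at chr6:125367708-125368107 downstream of the gene. The second overlapped a shared CEBPA peak 89 bp away and the third held the GGAAGT site shown above. *Tnfrsf1a* had 3 CEBPA peaks in PuER and 6 in EV. A shared CEBPA peak was centred 6 bp from its start. The 3 EV-only CEBPA peaks lay between 7057 and 8996 bp upstream and overlapped no PU.1 peak. PU.1 and CEBPA calls that differed between the lines were thus at separate places upstream of this gene.

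*Tnfrsf1b* and its neighbour *Tnfrsf8* had the most CEBPA peaks. *Tnfrsf8* (chr4:145267137-145315164) encodes CD30, a receptor of activated lymphocytes. *Tnfrsf1b* had 8 CEBPA peaks in PuER and 10 in EV, and *Tnfrsf8* had 8 in each. *Tnfrsf8* had 3 PU.1 peaks in PuER and 1 in EV. A PuER-only PU.1 peak between the genes, chr4:145258002-145258401, was counted at both and overlapped a shared CEBPA peak 24 bp away. A further PuER-only peak was in an intron of *Tnfrsf8* (chr4:145270137-145270536), also on a shared CEBPA peak, and another in an intron of *Tnfrsf1b* (chr4:145233699-145234098), without CEBPA. The shared PU.1 peak of *Tnfrsf8*, chr4:145276512-145276911, had the GAGGAAGT site shown above and was 31 bp from a shared CEBPA peak. The shared peak of *Tnfrsf1b*, chr4:145240613-145241012, overlapped its EV counterpart by 24 bp, so it was shared by definition but not centred at the same place.

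EV-only PU.1 peaks were rare, and *Tnfrsf1b* had 2 of the 5. They were downstream of the gene, at chr4:145201387-145201786 and chr4:145209603-145210002, nearer to the start of *Vps13d*. The first was centred 4 bp from a shared CEBPA peak and the second 88 bp from an EV-only CEBPA peak. The third, at *Tnfrsf13b* (chr11:61160312-61160711), was 77 bp from an EV-only CEBPA peak, and the fourth was that of *Tnfsf9*. The fifth, at the start of *Tnfrsf9* (chr4:150914233-150914632), was 130 bp upstream with a GGAAGT site, shown above, and 5 bp from the start of *Park7*. *Tnfrsf9*, which encodes the costimulatory receptor CD137, had 0 PU.1 peaks in PuER, 1 in EV and no CEBPA peak.

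*Tnfrsf21* encodes death receptor 6. It had 4 PU.1 peaks in PuER, 0 in EV, 1 CEBPA peak in PuER and 4 in EV. *Tnfrsf21* (chr17:43016555-43089189) had 3 of the PU.1 peaks in introns, at chr17:43032484-43032883, chr17:43033074-43033473 and chr17:43058608-43059007, each with at least 1 GGAAGT site in its central 80 bp. The other, chr17:43089572-43089971, was just downstream of the gene and had none. None of these peaks overlapped CEBPA, and the 3 EV-only CEBPA peaks were elsewhere in the introns, at 1012, 34368 and 56497 bp from the start.

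**Figure D4:**
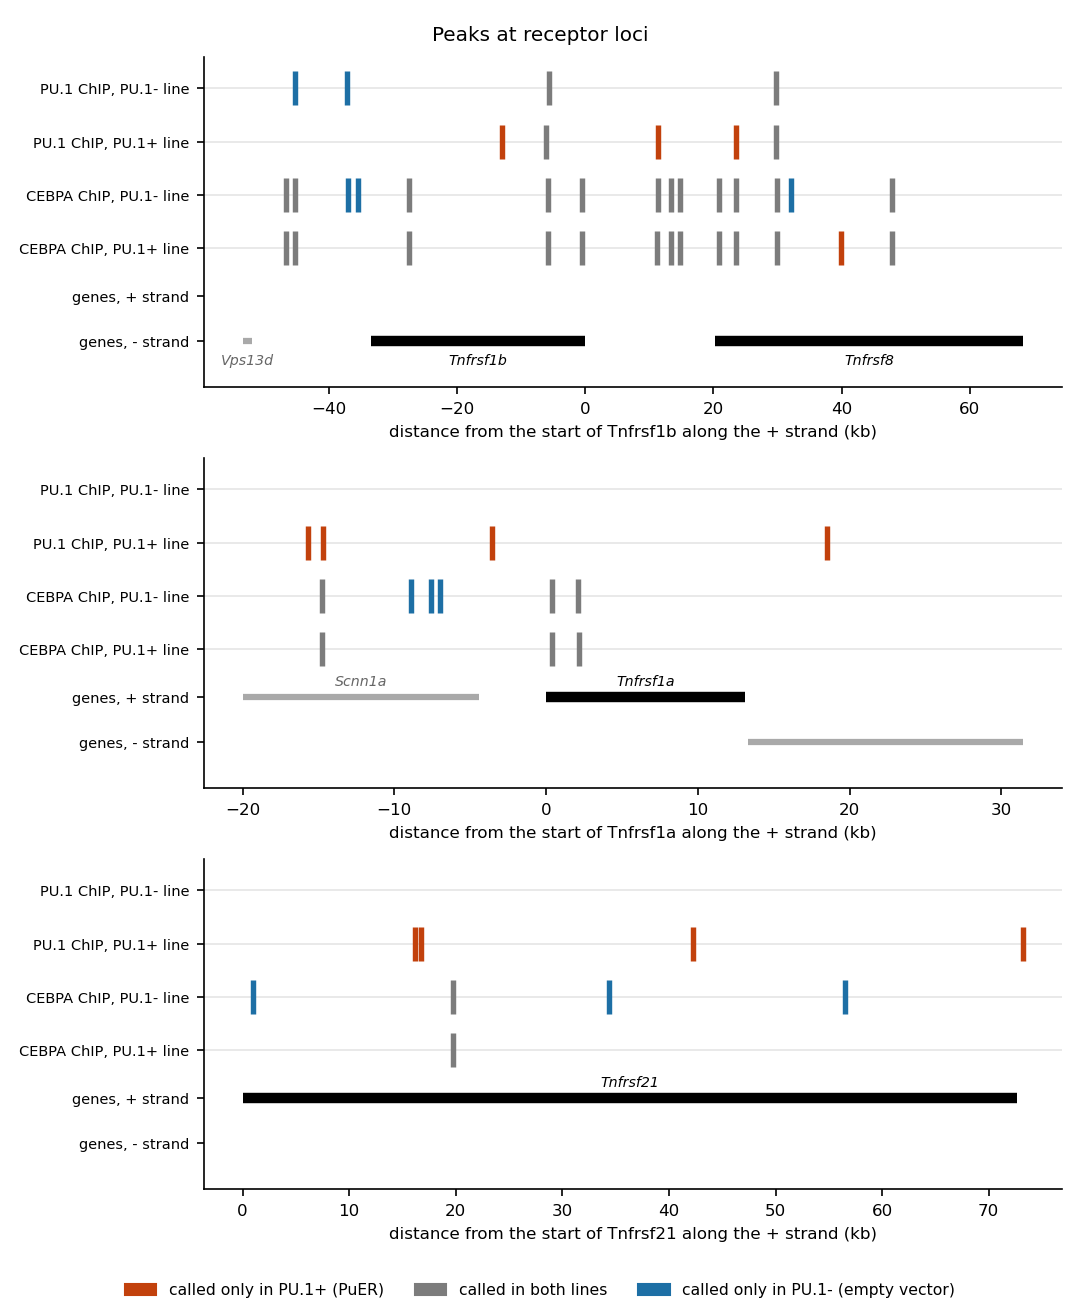
Centres of PU.1 and CEBPA peaks in each line at *Tnfrsf1b* and *Tnfrsf8* (top), *Tnfrsf1a* (middle) and *Tnfrsf21* (bottom), as distance in kb from the 5′ end of the gene named on the axis along the + strand. Ticks are peaks coloured by call and bars are genes (black, superfamily; grey, other protein-coding genes). At *Tnfrsf1a* and *Tnfrsf21* all PU.1 ticks are in the PuER row and each gene has 3 CEBPA ticks called only in EV.

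*Tnfrsf14* encodes HVEM, the receptor of LIGHT on blood cells. It had 3 PU.1 peaks in PuER and 1 in EV, and 3 CEBPA peaks in PuER and 5 in EV. *Tnfrsf14* (chr4:154921933-154928563) had a PuER-only PU.1 peak at its start, chr4:154926902-154927301, in an intron 976 bp downstream, with the GAGGAAGT site shown above and no CEBPA. The other PuER-only peak, chr4:154911284-154911683, was downstream of the gene, 111 bp from a shared CEBPA peak. The shared PU.1 peak, chr4:154929403-154929802, was 1039 bp upstream and 66 bp from a shared CEBPA peak.

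The receptors of APRIL and BAFF had few peaks. *Tnfrsf13b* (TACI) had 2 PU.1 peaks in PuER and 1 in EV, with the 2 PuER-only peaks 10453 and 17694 bp upstream, and 0 CEBPA peaks in PuER and 1 in EV. *Tnfrsf13c* (the BAFF receptor) had 1 PU.1 peak in PuER, with a GGAAGT site, and 0 in EV. *Tnfrsf17* (BCMA) had 0 PU.1 peaks, 1 CEBPA peak in PuER and 2 in EV. *Tnfrsf11a* (RANK, the receptor of RANKL) had 1 PU.1 peak in PuER, in an intron with a GGAAGT site, 0 in EV and 2 CEBPA peaks in each. *Tnfrsf4* (OX40) and *Tnfrsf18* (GITR) had 1 PU.1 peak in each list, which was the same shared peak at chr4:156031909-156032308, 5766 bp downstream of the start of *Tnfrsf18*.

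Of the receptors without PU.1, *Tnfrsf12a* (the TWEAK receptor) had 1 CEBPA peak in PuER and 2 in EV, and its EV-only peak, chr17:23677210-23677609, was 11 bp from the start. *Tnfrsf26* had 2 and 3 CEBPA peaks, with an EV-only peak, chr7:143627983-143628382, 229 bp from its start. *Tnfrsf22* and *Tnfrsf23*, mouse decoy receptors of TRAIL, had 1 and 3, and 1 and 2. A shared CEBPA peak was 38 bp from the start of *Tnfrsf23*. *Tnfrsf19* (TROY) had 1 and 2 CEBPA peaks, and *Tnfrsf10b* (the mouse TRAIL death receptor) 1 in each. At these receptors the calls that differed were all CEBPA peaks of the EV list. *Tnfrsf11b* (osteoprotegerin, the secreted decoy of RANKL) and *Tnfrsf25* (the receptor of TL1A) had no peak in any list.

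The PU.1 peaks called only in PuER were mostly far from the starts of superfamily genes. Distances were taken from the nearest start among the superfamily genes at which a peak was counted. The median distance of the 33 peaks was 12972 bp (range 73 to 73216 bp), and 27 of them were over 5000 bp away. The 8 shared PU.1 peaks had a median of 3402 bp (8 to 38436 bp). By place, 4 of the 33 were at a start (*Tnf*, *Tnfrsf14*, *Tnfsf13* and *Tnfsf14*), 7 in the gene body, 11 upstream and 11 downstream, and 3 of the 8 shared peaks were at a start. The start nearest to the peak was that of a superfamily gene at which it was counted for 24 of the 33. For the other 9 it was that of another gene. For 1 of these, the peak in *Tnfrsf8* at chr4:145270137-145270536, that gene was *Tnfrsf1b*, also of the superfamily. From the start of any protein-coding gene the median was 10453 bp, and 22 of the 33 were over 5000 bp away. Distances over all PU.1 peaks of these classes were not computed, so these values do not set the superfamily peaks apart. For CEBPA the medians from superfamily starts were 12819 bp for the 48 shared and 8996 bp for the 23 EV-only peaks, of which 7 and 4 were at a start. Of all 20 peaks at starts, 10 were shared.

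**Figure D5:**
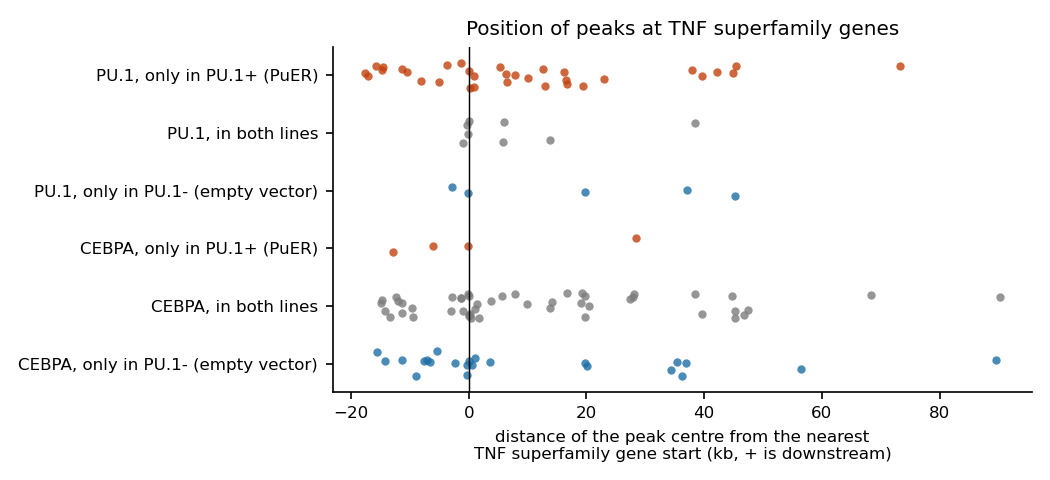
Distance in kb of each peak centre from the nearest annotated start among the superfamily genes at which it was counted, by antibody and call. Positive values are downstream. Each point is a peak, counted once, with vertical jitter. Most of the 33 PuER-only PU.1 peaks lie away from 0, at a median of 12972 bp, and the 8 shared ones have a median of 3402 bp.

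PU.1 peaks called only in PuER were next compared with CEBPA. Of the 33, 12 (36.4%, 95% confidence interval 20.4–54.9%) overlapped a CEBPA peak of the EV list, beside 18.1% of all 12714 such peaks. All 12 were on shared CEBPA peaks, beside 16.1% of the 12714. The 12714 peaks were not restricted to gene windows, which held 9756 of them. The 12 were at *Tnfsf13* (2), *Tnfsf8* (2), the *Tnf* locus (2), the *Tnfrsf1b* and *Tnfrsf8* locus (2), *Tnfsf9*, *Tnfsf14*, *Tnfrsf1a* and *Tnfrsf14* (1 each). The centres of the paired peaks were 2 to 195 bp apart with a median of 36.5 bp, and 7 were within 50 bp. None of the 33 (upper limit 10.6%) overlapped a CEBPA peak called only in PuER, beside 7.17% of all such peaks. Counted against CEBPA of the PuER list, the same 12 stood beside 23.2% of all such peaks, a value inside the interval. The 18.1% and the 16.1% were below it. The interval of the count of 0 included the share over all such peaks.

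From the side of CEBPA, 12 of the 48 shared peaks (25.0%, 13.6–39.6%) overlapped a PuER-only PU.1 peak, beside 11.3% of all shared CEBPA peaks. None of the 23 EV-only CEBPA peaks (upper limit 14.8%) overlapped a PU.1 peak of the PuER list, beside 5.7% of all. Of the 4 PuER-only CEBPA peaks, 1 did, that at the start of *Tnfsf13*, beside 42.6% of all. Of the 8 shared PU.1 peaks 5 overlapped shared CEBPA peaks, beside 53.3%, and of the 5 EV-only PU.1 peaks 4 overlapped CEBPA of the EV list, beside 54.5%. With counts this small the intervals of the last 3 shares are wide and include the values over all peaks.

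Motifs were searched on both strands in the central 80 bp of each peak. A GGAAGT site was in 15 of the 41 PU.1 peaks of the PuER list (36.6%, 22.1–53.1%), beside 43.5% of all peaks of that list, and in 6 of the 13 of the EV list (46.2%, 19.2–74.9%), beside 36.5%. The longer GAGGAAGT was in 5 of the 41 (12.2%, 4.08–26.2%), beside 15.2%, and in 2 of the 13 of the EV list (15.4%, 1.92–45.4%), beside 7.38%. Of the 5 peaks of the PuER list with it, 3 were among the 8 shared peaks and 2 among the 33 called only in PuER. Among the 3, that of *Tnfsf13* and *Tnfsf12* had its site outside the EV peak. TTGCNNAA was in 21 of the 52 CEBPA peaks of the PuER list (40.4%, 27–54.9%), beside 38.2%, and in 26 of the 71 of the EV list (36.6%, 25.5–48.9%), beside 35.6%. Sites of RUNX (TGTGGT) and AP-1 (TGANTCA) were in 3 and 2 of the 41 PU.1 peaks, beside 10.3% and 3.9% of all. The interval of each of these shares included the value over all peaks, so no motif set the superfamily peaks apart at this number of peaks.

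Promoter sequences from RefSeq (GRCm38, 250 bp before to 50 bp after the start) were matched by symbol to 27 of the 34 genes. GGAAGT was in 5 of them, *Tnf*, *Tnfrsf13b*, *Tnfrsf14*, *Tnfrsf4* and *Tnfsf18* (18.5%, beside 26.5% of all promoters). TTGCNNAA was in 3, *Tnfrsf23*, *Tnfsf13b* and *Tnfsf14* (11.1%, beside 12.2%), and each of these had a shared CEBPA peak at its start. So did *Tnfsf13* and *Tnfrsf14*, whose promoter sequences lacked TTGCNNAA. Those 2 peaks were centred 206 bp downstream and 973 bp upstream of the nearest annotated start. Their centres were thus outside a stretch from 250 bp before to 50 bp after it. The share of all promoters with TTGCNNAA that had a CEBPA peak was not computed. GAGGAAGT was in 1, *Tnfsf18* (3.7%, beside 3.69%), TGTGGT in 6 (22.2%, beside 18.9%) and TGANTCA in 5, *Tnfrsf8*, *Tnfrsf9*, *Tnfsf13*, *Tnfsf13b* and *Tnfsf14* (18.5%, beside 8.97%).

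Other genes of the pathway were described in the same way. Of 12 superfamily genes with other symbols, 7 had a PuER-only PU.1 peak, with 2 peaks each at *Cd27* and *Relt*, which encode receptors, and 1 each at *Fas*, *Fasl*, *Ltbr*, *Edar* and *Ngfr*. The others, *Cd40*, *Cd40lg*, *Cd70*, *Eda* and *Eda2r*, had none. The *Ltbr* peak was the most distant of the peaks upstream of *Tnfrsf1a*. None of the 12 had a PuER-only CEBPA peak, beside 11.4% of all genes. Of 25 adaptors and proximal signalling genes, 13 had a PuER-only PU.1 peak, led by *Map3k14* with 5, which encodes the NF-kB-inducing kinase of the non-canonical pathway, and *Tab2* with 3, which encodes a subunit of the TAK1 kinase complex. *Birc3*, *Rnf31*, *Tnfaip3* and *Traf5* had 2 each. Of 11 NF-kB and IKK genes, 8 had such a peak, led by *Nfkb1* and *Nfkbie* with 4 each and *Chuk*, which encodes IKK alpha, with 3. PuER-only PU.1 peaks were present at 36.7% of all genes. Shared CEBPA peaks were at 5 of the 12, 19 of the 25 and 9 of the 11, beside 48.3% of all genes.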

How the data were processed

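ChIP-Seq libraries of PU.1 and CEBPA from the EV and PuER lines were used, 4 of the 8 samples listed; those for H3K27Ac and IgG were not analysed here. Per the labels and the methods, reads were mapped to mm10 with Bowtie2 2.0.6 and peaks called with MACS2 2.0.10. In the peak files used here the authors deposited coordinates, with no score, height or count. The lists were taken as 2 h in OHT, as labelled, although the text of the study speaks of time 0 as well. The calling threshold and the reason for the fixed width are not given in the sources used here, and read depth is unknown.

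Peaks were assigned to GENCODE vM21 protein-coding genes and read against GRCm38 sequence. Shared peaks were counted in the PuER list. A few CEBPA peaks of the EV list without sequence in the reference were left out of motif shares. Shares over all genes or all peaks are the background. The genes, lists and motifs were chosen with earlier results of these data known. Each of the 34 genes is named. Coordinates are given for peaks of the genes with the most PuER PU.1 peaks (the top 8 and ties), for starts where calls differed, and for EV-only PU.1 peaks. The 3 genes with most PuER-only PU.1 peaks were named from each other list, with ties. Overlap classes, gene windows and motifs were tested on simulated data, where 100% were recovered. Python 3.11.15, scipy 1.17.1, pysam 0.24.0 and matplotlib 3.10.9 were used.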

Additional observations from a re-analysis of the deposited data

How the results depend on the processing

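Of 65 values recomputed under other settings for 15 results, 54 stayed within 1.5 times the reported count or inside its interval and 11 moved. The width of the window moved most of them. Within 50 kb there were 50 PU.1 peaks called only in PuER, 9 called only in EV, at 9 genes, and 73 shared CEBPA peaks. Within 10 kb there were 3 EV-only PU.1 peaks, and 4 genes with a PuER-only CEBPA peak. When a peak was given only to the gene with the nearest start, 1 EV-only PU.1 peak was left, at 1 gene, and 3 genes had a PuER-only CEBPA peak. Searching the whole 400-bp peak raised the share of PuER PU.1 peaks with GGAAGT to 56.1%, beside 64.5% of all peaks of that list. The share of PuER CEBPA peaks with TTGCNNAA rose to 57.7%, beside 53.7% of all peaks of that list. With an overlap of at least 50% required, 6 of the 8 shared PU.1 peaks stayed shared. No paired analysis was possible because there was 1 library for each antibody and line and no result came from a test. Without replicates, depth or peak heights, a difference in calls between the lines cannot be told apart from a difference in depth or calling threshold, or from a difference between the clones.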
